A study of Ictalurus punctatus with 14 samples.

Results

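The genes described here had few reads in whole channel catfish (Ictalurus punctatus) at 2 days post-fertilization (dpf). They were counted at every stage from 5 to 10 dpf, with a steady mean level over those larval stages. They were chosen from the read counts, scaled to counts per 1000000 counts of the library (CPM) and averaged over the 2 libraries of a stage. A gene was taken when its mean was below 1 CPM at 2 dpf and at least 5 CPM at each of the 6 larval stages, when its highest larval mean was at most 2 times its lowest, and when the log2 ratio of the means at 9 and 5 dpf was between -0.5 and 0.5. These limits were met by 94 of 23231 genes, so every stage mean given here helped to choose the genes and is a description. The neighbours of the genes and their known functions played no part in the choice. Differences between the replicates of a stage entered it only through the stage means.

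The fish were Kansas random strain, a domestic line, with eggs incubated at 25 to 26 °C and fish fed from 7 dpf. At 2 dpf and on every day between 5 and 10 dpf, 8 embryos or larvae were taken and divided into 2 pools of 4 fish, each homogenized whole, which gave 14 libraries of ribosome-depleted RNA. The labels name the material whole fry of whole-body tissue and leave the sex unknown. The pools of a stage came from a single sampling, so the spread between them measures these pools only.

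Total counts lay between 4349807 and 16097718 per library, and 3 counts, taken as the floor, corresponded to 0.280 and 0.275 CPM in replicates 1 and 2 at 2 dpf and to 0.186 to 0.690 CPM in the larval libraries. Replicates were least alike at 9 and 10 dpf, where their correlation across 20329 genes on the log2 scale was 0.964 and 0.932, against 0.986 to 0.991 at the other stages. The deposited counts were also set against the FPKM table that accompanies the study, over 974 of its genes with at least 50 counts in every library and with gene lengths taken from replicate 1 of 2 dpf. In 6 other libraries (replicate 2 of 2 dpf, both of 6 dpf, replicate 2 of 8 dpf and both of 10 dpf) counts and FPKM corresponded within 1% for 100% of these genes. In the remaining 7 libraries, both of 5, 7 and 9 dpf and replicate 1 of 8 dpf, they did so for 12.2% to 18.2%, with a median deviation of 0.042 to 0.069 in log2 units. These columns thus do not correspond to that table, and whether the counts or the gene lengths behind it differ was not tested. Each of the 14 columns was still nearest to the FPKM of its own label, the next nearest of the 7 being 0.092 or more away. Markers of lens and neurons were detected in the larvae. In each of the 12 larval libraries, 3 of 4 lens markers and 6 of 6 neuron markers had 1 CPM or more. Of the markers, 1 for lens and 0 for neurons were among the genes chosen here. The larval level of that lens marker was part of the choice. Both sets were also counted at 2 dpf. The lens markers summed to 9.72 to 12.3 CPM at 2 dpf and 207 to 359 CPM in the larval libraries. The neuron markers summed to 29.6 to 37.4 CPM and 231 to 530 CPM. In whole-body samples, fewer cells of a type and less RNA per cell cannot be told apart.

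The lens of the eye is built of fibre cells packed with crystallins, a group of long-lived soluble proteins, and held in shape by beaded filaments. In the developing brain and spinal cord, newly formed neurons switch on receptors for inhibitory transmitters, synaptic adhesion proteins and calcium-binding proteins as they mature. In the retina, pigment epithelium and glia recycle the visual chromophore through carrier proteins and dehydrogenases.

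By known role, 7 of the 94 genes belonged to the lens, 25 to neurons or glia, 2 to the visual cycle, 4 to muscle, 4 to immunity or blood, and 1 was a pituitary hormone. A further 9 were enzymes or transporters of other kinds, and 9 had another known name. The other 33 genes had no name that gives a role, and 7 of these lay together in a single run of neighbouring genes. This grouping by role was made after the genes were known. Levels given as CPM are not corrected for transcript length, so they compare a gene between libraries and not 1 gene with another.

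Lens genes gave the largest group of reads among the named members. cryba4, which encodes a beta A crystallin, had 1.49 and 0.183 CPM (16 and 2 counts) in replicates 1 and 2 at 2 dpf, 243 and 207 CPM at 5 dpf, 239 and 265 CPM at 6 dpf, 223 and 214 CPM at 7 dpf, 278 and 375 CPM at 8 dpf, 172 and 295 CPM at 9 dpf and 293 and 246 CPM at 10 dpf. The lowest larval library of cryba4 was thus far above both libraries of 2 dpf, while the ranges of neighbouring larval stages overlapped in 3 of 5 steps. Its log2 fold change at 5 dpf over 2 dpf, estimated with edgeR, was 7.84 ± 0.51 (SE), and it was 9.95 without replicate 1 and 7.01 without replicate 2 of 2 dpf. crygn2, a gamma N crystallin, lay between 166 and 356 CPM in the 12 larval libraries and had 12 and 6 counts at 2 dpf. crgm2, a gamma M crystallin of the kind found in fish lenses, lay between 108 and 302 CPM in the larvae, with 8 and 4 counts at 2 dpf.

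The remaining lens genes were lower and did not all follow the same course. crybb1l2, a gene like that of beta B1 crystallin, had 86.4 to 158 CPM in the larval libraries. cryba1a, another beta A crystallin, and crybb1l3, a second gene like beta B1 crystallin, were direct neighbours on the Coco_2.0 assembly with no annotated gene between them. cryba1a had 49.2 and 45.0 CPM at 5 dpf, 33.8 and 25.9 CPM at 6 dpf, 45.3 and 46.7 CPM at 7 dpf, 32.4 and 45.1 CPM at 8 dpf, 29.6 and 54.7 CPM at 9 dpf and 40.9 and 24.9 CPM at 10 dpf. crybb1l3 had 45.3 and 43.3 CPM at 5 dpf, 32.8 and 23.3 CPM at 6 dpf, 47.8 and 43.8 CPM at 7 dpf, 29.1 and 40.8 CPM at 8 dpf, 33.9 and 53.6 CPM at 9 dpf and 31.7 and 22.8 CPM at 10 dpf. Both neighbours were lower at 6 than at 5 dpf in every library and higher again at 7 dpf, whereas cryba4 and crygn2 had their lowest stage mean at 7 dpf. bfsp2, which encodes phakinin, a beaded filament protein, had 20.9 to 48.0 CPM in the larvae and 2 and 1 counts at 2 dpf.

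**Figure D1:**
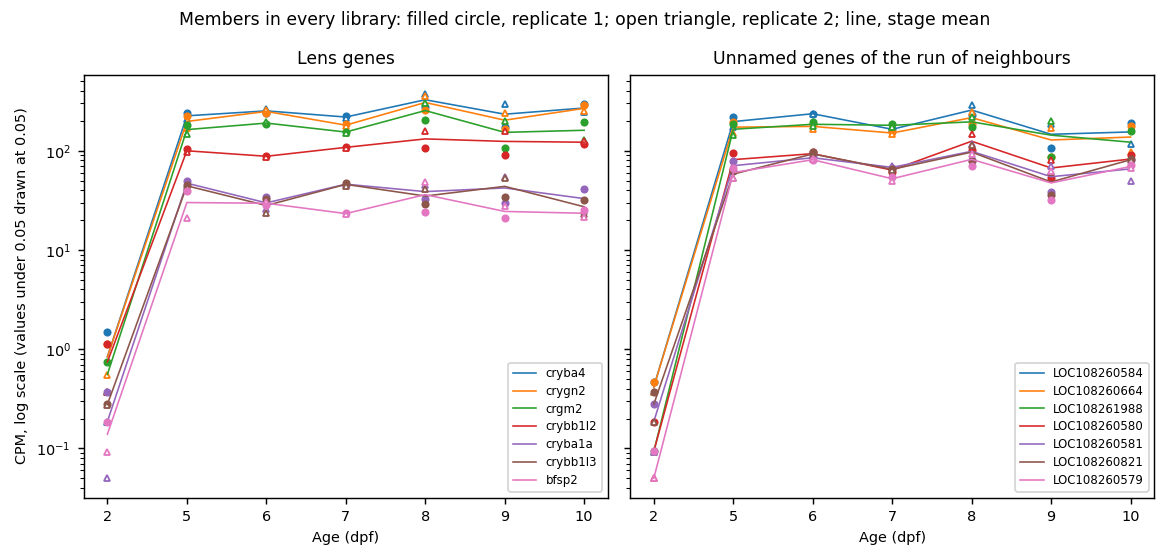
Level of the 7 lens genes (left) and of the 7 unnamed genes of the run of neighbours (right) in every library, in CPM on a log scale against age in dpf. Filled circles are replicate 1, open triangles replicate 2 and lines stage means of 2 libraries, and values under 0.05 CPM are drawn at 0.05 CPM. The 2 dpf libraries lie far below all larval libraries, and the triangles lie above the circles for every one of these genes at 8 and 9 dpf.

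The limit at 2 dpf kept 5 beta crystallins out. crybb1l1, cryba1l1, crybb1, cryba1b and cryba2b met every other limit and stayed outside because their means at 2 dpf were 1.85, 1.21, 1.35, 1.25 and 1.11 CPM. crybb1l1, the highest of them, had 321 to 648 CPM in the larval libraries and 24 and 16 counts in replicates 1 and 2 at 2 dpf. Their larval ratios were 1.35 to 1.52. The gamma M crystallin crygmx and crybgx had 0.0925 and 0.0934 CPM at 2 dpf but larval ratios of 2.20 and 2.88, and cryaa, the alpha A crystallin, had no count at 2 dpf, means of 0.458 to 1.67 CPM from 5 to 9 dpf and 3.70 CPM at 10 dpf. crybb2, a beta B crystallin with 2 and 0 counts at 2 dpf, stayed outside with larval means of 0.315 to 1.16 CPM. These crystallins were looked up by symbol after the members were known. The same look-up gave genes that did not rise from 2 to 5 dpf. crybg1a and crybg2 had means of 131 and 60.9 CPM at 2 dpf and 54.0 and 28.5 CPM at 5 dpf. Their log2 fold changes, -1.48 and -1.30, were called lower. crygs2 had 3.88 and 2.57 CPM at these stages and was not called.

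Of the 15 genes in a list of lens genes, 13 could be tested with edgeR's quasi-likelihood test across all libraries, and 12 were higher at 5 dpf than at 2 dpf and 0 lower, with calls made at an adjusted p under 0.05 and a fold change of 1 or more, up or down, in log2 units. Over all genes tested the shares called higher and lower were 21.3% and 11.9%. Their median log2 fold change was 5.82, against 0.02 over all 20329 genes tested. Of the list, 3 genes were members (cryba4, bfsp2 and cryba1a). The rule had fixed their rise, as it had for the members in the lists below. Lists were matched by symbol, and crygn2, crgm2, crybb1l2 and crybb1l3 were not in this one. Of the crystallins outside the members, crybb1l1, cryba1l1 and crybgx were missing too. So were crygs2, crybg1a and crybg2, which did not rise, so the counts above do not cover every crystallin.

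Other highly counted members had no name. LOC108259744, the member with the highest lowest stage mean, had 13 and 5 counts at 2 dpf, 259 and 233 CPM at 5 dpf, 349 and 330 CPM at 6 dpf, 306 and 274 CPM at 7 dpf, 382 and 564 CPM at 8 dpf, 214 and 411 CPM at 9 dpf and 388 and 327 CPM at 10 dpf. LOC108259752 had 160 to 404 CPM in the larval libraries and 14 and 1 counts at 2 dpf, and LOC108259787 had 116 to 227 CPM and 8 and 2 counts. All 3 were highest at 8 dpf by stage mean, and their replicate 2 was the higher one at 8 and 9 dpf, as in the lens genes. si:dkey-1k23.3 behaved otherwise, with 200 and 99.5 CPM in replicates 1 and 2 at 8 dpf, 99.5 and 230 CPM at 9 dpf and 164 and 33.5 CPM at 10 dpf. Its stage means at 9 and 10 dpf were 165 and 98.8 CPM, and its replicates at 10 dpf were 4.90-fold apart.

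A run of 11 neighbouring genes on a single chromosome of Coco_2.0 held 7 members, all known by identifier only. In gene order these were LOC108261988, LOC108260579, LOC108260580, LOC108260664, LOC108260581, LOC108260584 and LOC108260821. Of the other 4 genes of the run, LOC128629404 was not used here because the count table has no line for it, and LOC108260663, LOC108260582 and LOC108260583 were counted but missed the limits. LOC108260663 and LOC108260582 were too low at 9 dpf, with log2 ratios of -0.62 and -0.65 to 5 dpf, and LOC108260583 had a larval ratio of 2.26. These genes may be near copies that share reads, and how such reads were counted could not be seen in a table of totals, so their levels are uncertain individually.

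The 7 members of the run shared their peak. LOC108260584 had 220 and 173 CPM at 5 dpf, 236 and 236 CPM at 6 dpf, 165 and 164 CPM at 7 dpf, 228 and 286 CPM at 8 dpf, 106 and 187 CPM at 9 dpf and 191 and 118 CPM at 10 dpf. LOC108261988, with 1 count in each library of 2 dpf, lay between 87.1 and 218 CPM in the larvae, and LOC108260579, with 1 and 0 counts at 2 dpf, lay between 32.0 and 93.3 CPM. All 7 had their highest stage mean at 8 dpf. From 9 to 10 dpf they parted, as LOC108261988 had its lowest mean at 10 dpf, 122 CPM, while the other 6 had higher means at 10 than at 9 dpf. LOC108260821 was the member nearest to the limit on the larval ratio, at 2.00, with stage means of 96.8 CPM at 8 dpf and 48.4 CPM at 9 dpf. Summed over the run, the level was 917 and 1223 CPM at 8 dpf, 440 and 831 CPM at 9 dpf and 851 and 574 CPM at 10 dpf. The ranges of the libraries at 8 and 9 dpf did not overlap for this sum, while those at 9 and 10 dpf did.

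**Figure D2:**
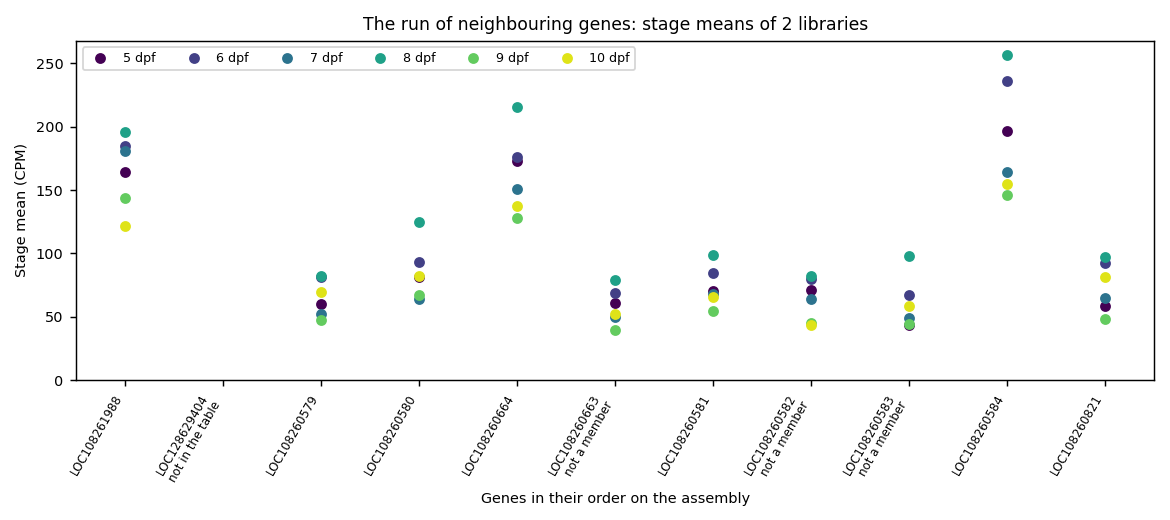
Stage means (CPM, mean of 2 libraries) of the genes of the run, placed in their order on Coco_2.0 without distances. Colours mark the 6 larval stages. The 8 dpf mean is the highest for all 10 counted genes, the 3 that are not members included, and LOC108260584 reaches 257 CPM there.

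The 25 neuronal and glial members had between 4.78 and 29.3 CPM in the larval libraries. glra1, the alpha 1 subunit of the inhibitory glycine receptor, had 0.747 and 0.458 CPM at 2 dpf, 12.4 and 12.2 CPM at 5 dpf, 13.8 and 10.5 CPM at 6 dpf, 14.9 and 14.8 CPM at 7 dpf, 10.7 and 11 CPM at 8 dpf, 17.3 and 10.6 CPM at 9 dpf and 12.4 and 24.3 CPM at 10 dpf. Neighbouring larval stages overlapped in 3 of 5 steps, and replicate 2 at 10 dpf was the highest of the 12 larval libraries. chgb, which encodes chromogranin B of secretory granules, had 17.9 and 18.2 CPM at 5 dpf and 22.2 and 29.3 CPM at 10 dpf, and was lowest at 6 dpf with 11.2 and 15.9 CPM. calb1, the calcium buffer calbindin of many neurons, was among the 5 members with the smallest larval ratio, 1.25, and its 12 larval libraries lay between 6.66 and 11 CPM.

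At the other end, dlg4b, a gene for the postsynaptic scaffold PSD-95, lrrn2, a neuronal leucine-rich repeat gene, and the orphan receptor gene gpr19 had larval ratios of 2.00, 1.97 and 1.98. dlg4b had 7.44 and 6.47 CPM at 6 dpf, its lowest stage, and 9.12 and 18.6 CPM at 10 dpf, its highest. The group held further inhibitory and transmitter genes: gabrg1, a subunit of the GABA-A receptor, had 4.78 to 10.6 CPM in the larval libraries. slc6a2, the noradrenaline transporter, had 9.81 to 17.6 CPM, and adcyap1r1b, a receptor for the neuropeptide PACAP, had 11 to 23.4 CPM. It also held neurod2 and neurod6a, transcription factors of differentiating neurons, with 5 and 0 counts and 1 and 1 counts at 2 dpf and with 8.29 to 19.5 CPM and 6.38 to 16.0 CPM in the larvae. mlc1, a membrane protein of astroglia in mammals, was highest at 5 dpf, with 15.9 and 15.5 CPM, and had 10.3 to 14 CPM in the other 10 larval libraries.

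Most genes of this kind in the fish did not meet the limits. In a list of 76 genes of synapse and neuron, glra1 was the only member, although 65 of the 73 tested were higher at 5 dpf than at 2 dpf and 1 was lower, with a median log2 fold change of 3.0, beside 21.3% higher and 11.9% lower of all genes tested. In the 5 steps from one larval day to the next, 7 of the 73 were called at least once, beside 12.9% of all genes tested. By the highest stage mean, 20 of the 25 neuronal and glial members stood at 10 dpf. Of the 14 lens genes and genes of the run, 12 stood at 8 dpf. Of all members, 43 stood at 10 dpf and 24 at 8 dpf, and the share over all genes was not counted. As sums, these peaks rested on replicate 2. The neuronal and glial members had 269 CPM at 10 dpf and 273 CPM at 9 dpf in replicate 1. In replicate 2 they had 415 and 255 CPM. The lens genes had 931 CPM in replicate 1 of 8 dpf, below 987 CPM in replicate 1 of 10 dpf. The run had 917 CPM in replicate 1 of 8 dpf, below 979 CPM in replicate 1 of 6 dpf.

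**Figure D3:**
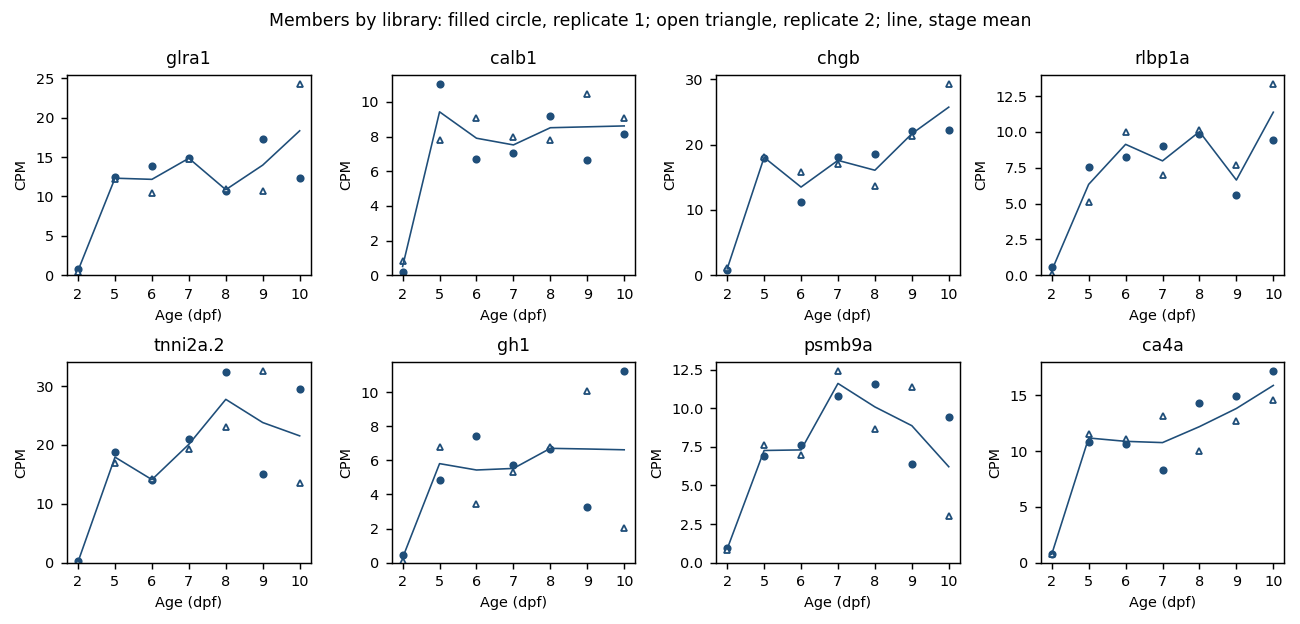
Levels of 8 members of different roles in every library (CPM, linear axes from 0, against age in dpf). Filled circles are replicate 1, open triangles replicate 2 and lines stage means. All are near 0 at 2 dpf, and the replicates of gh1 and psmb9a lie far apart at 10 dpf, at 11.2 and 2.01 CPM and at 9.41 and 3.02 CPM, although the stage means of gh1 range from 5.44 to 6.71 CPM.

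The visual cycle was represented by rlbp1a and rdh5. rlbp1a, which encodes the retinaldehyde-binding protein of retinal glia and pigment epithelium, had 7.59 and 5.10 CPM at 5 dpf, 8.27 and 10.0 CPM at 6 dpf, 9.00 and 6.96 CPM at 7 dpf, 9.88 and 10.2 CPM at 8 dpf, 5.63 and 7.66 CPM at 9 dpf and 9.41 and 13.3 CPM at 10 dpf. rdh5, a retinol dehydrogenase of the pigment epithelium, had the smallest larval ratio of all members, 1.21, with 4.8 to 8.44 CPM in the 12 larval libraries. Both were in a list of 51 genes of photoreceptors and pigment epithelium, of which 29 of the 49 tested were higher at 5 dpf than at 2 dpf and 2 lower, beside 21.3% and 11.9% of all genes, and 17 were called in at least 1 larval step, beside 12.9%. crabp1a, a cellular retinoic acid-binding protein gene, had 29.9 and 26.8 CPM at 5 dpf and 33.1 and 41.2 CPM at 10 dpf.

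Of the 4 muscle genes, tnni2a.2, a fast skeletal troponin I gene, had 18.9 and 17.0 CPM at 5 dpf, 14.1 and 14.1 CPM at 6 dpf, 20.9 and 19.3 CPM at 7 dpf, 32.4 and 23.1 CPM at 8 dpf, 15.1 and 32.5 CPM at 9 dpf and 29.5 and 13.6 CPM at 10 dpf. Its replicates at 9 and at 10 dpf were each more than 2-fold apart, in opposite directions. capn3a, a calpain gene of skeletal muscle in mammals, had 48.3 to 82.2 CPM in the larvae, and asb15a and asb15b, which encode ankyrin repeat proteins of muscle, had 4.55 to 12.7 CPM and 5.45 to 12.7 CPM. None of these 4 was matched to the list of 78 sarcomere and calcium handling genes, of which 62 of the 76 tested were higher at 5 dpf than at 2 dpf and 0 lower, beside 21.3% and 11.9% of all genes, and 25 were called in at least 1 larval step, beside 12.9%. The list names tnni2, and tnni2a.2 was missed only because the symbol matching did not cover its ending.

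gh1, the growth hormone gene of the pituitary, had 5 and 1 counts at 2 dpf, 4.83 and 6.80 CPM at 5 dpf, 7.44 and 3.43 CPM at 6 dpf, 5.73 and 5.33 CPM at 7 dpf, 6.65 and 6.77 CPM at 8 dpf, 3.26 and 10.1 CPM at 9 dpf and 11.2 and 2.01 CPM at 10 dpf. Its stage means, 5.44 to 6.71 CPM, were among the steadiest of all members, with a ratio of 1.23, while the coefficient of variation over its 12 larval libraries, 43.9%, was the highest of all. In the list of 44 hormone and secretory granule genes, where gh1 and chgb were the members, 23 of the 31 tested were higher at 5 dpf than at 2 dpf and 0 lower, beside 21.3% and 11.9% of all genes.

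Genes of immunity and blood followed. psmb9a, a catalytic subunit of the immunoproteasome, had 6.90 and 7.65 CPM at 5 dpf, 10.8 and 12.4 CPM at 7 dpf and 9.41 and 3.02 CPM at 10 dpf. prf1.5, a perforin gene, had 9.20 and 8.83 CPM at 5 dpf and 7.30 and 4.15 CPM at 10 dpf, and mpl, the thrombopoietin receptor gene, had the lowest coefficient of variation of all members over the larval libraries, 13.5%. In a list of 43 genes of leukocytes and innate defence, 11 of the 40 tested were higher at 5 dpf than at 2 dpf and 4 lower, with a median log2 fold change of 0.29, near the shares of 21.3% and 11.9% over all genes. ca4a, a carbonic anhydrase gene, was the member in a list of 27 ionocyte and ion transport genes, 6 of which were higher at 5 dpf and 4 lower, again near these shares. ca4a had 10.8 and 11.6 CPM at 5 dpf and 17.2 and 14.6 CPM at 10 dpf. By this matching of symbols, the other 17 of 23 lists held no member.

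A single member had no count in either library of 2 dpf. zgc:112285, whose symbol gives no role, had 16.6 and 11.2 CPM at 5 dpf and 8.29 to 18.7 CPM over the larval libraries, which was at least 49.6-fold higher at 5 dpf than the floor of 3 counts per library at 2 dpf.

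With all 14 libraries fitted together, all 94 members were called higher at 5 dpf than at 2 dpf, beside 21.3% of all genes tested, as the rule on stage means had fixed. Between 6 and 5, 7 and 6, 8 and 7, 9 and 8, and 10 and 9 dpf, edgeR called 0 of the 94 each time, beside 9.9%, 2.61%, 2.24%, 0.738% and 1.29% of all genes tested. The limit on the larval ratio had bounded these steps beforehand, so nothing is read from the count. At an unadjusted p under 0.05, 6, 7, 11, 11 and 11 members differed in these steps, and 1 of them, between 9 and 8 dpf, past the same fold change. The share over all genes at this p was not counted, so nothing is read from these numbers either. DESeq2 called 1 member higher at 7 than at 6 dpf, meox2a, a homeobox gene of muscle precursors, 1 lower at 9 than at 8 dpf, LOC108260821, and 0 in the other 3 steps. Of all 23231 genes, it called 1956, 648, 494, 207 and 338 in the steps in the order above.

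The rule used stage means and not the difference between replicates, but a mean near a limit can rest on 1 replicate. All 7 genes of the run missed the rule without replicate 2 of 9 dpf. So did 17 of the 25 neuronal and glial genes without replicate 1 of 10 dpf. How far the choice shaped the replicate differences was not tested. In these differences the groups of members separated. At 8 dpf, replicate 2 was above replicate 1 in all 14 lens genes and genes of the run, with a median log2 ratio of 0.48, against 0.07 over all genes tested. This sets a column that corresponded to the FPKM table (replicate 2) against one that did not (replicate 1), and cannot be computed without replicate 1. The part of this mismatch in the difference was not tested. At 9 dpf, replicate 2 was again above replicate 1 in all 14, with a median of 0.80, against -0.03 over all genes, where neither column corresponded to the table. At 10 dpf the order turned: replicate 1 was above replicate 2 in 13 of the 14, with a median log2 ratio of -0.39, against 0.13 over all genes, and here both columns corresponded. At 5 dpf replicate 1 was above replicate 2 in all 14, with a median of -0.33, against -0.01 over all genes. At 6 and 7 dpf the medians were -0.07 and -0.04, against 0.04 and 0.0027 over all genes. At 6 dpf the 7 lens genes alone had a median of 0.06 and the 7 genes of the run -0.11. At 5, 8, 9 and 10 dpf the medians of the lens genes alone were -0.23, 0.48, 0.78 and -0.25. Those of the run, whose genes have no known role, were -0.35, 0.42, 0.87 and -0.69. Genes of a group are not replicates, and each stage compares 2 pools only. Over all genes tested, replicate 2 was the higher one in 48.2%, 58.9%, 47.7% and 57.2% at 5, 8, 9 and 10 dpf.

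Lens genes outside the 94 mostly behaved alike at 8 and 9 dpf and not at 10 dpf. Of the 10 other genes of the lens list that could be tested, replicate 2 was above replicate 1 in 10 at 8 dpf and in 9 at 9 dpf. Their median log2 ratios were 0.45 and 0.53. Among genes of the list too low to be tested, crybb2 was higher in replicate 1 and cryabb in replicate 2 at both stages. At 10 dpf it was above in 5 and below in 5. The 5 beta crystallins kept outside by their level at 2 dpf had replicate 2 above replicate 1 in 4 of 5 at 10 dpf, with a median of 0.22. Among the 7 lens members it was above in 1, with a median of -0.25. Of the 5, cryba1b, cryba2b and crybb1 are also among the 10 list genes above, so the sets overlap.

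The neuronal and glial members went the other way at 10 dpf. Replicate 2 was above replicate 1 in 23 of 25, with a median log2 ratio of 0.64, against 57.2% of all genes tested and a median of 0.13. The widest gaps were those of atcayb, the gene of the brain protein caytaxin, with 11.9 and 28.2 CPM, ca10a, a carbonic anhydrase-related gene of neurons, with 7.78 and 18.0 CPM, and gpr85, a receptor gene of the brain, with 7.01 and 14.7 CPM in replicates 1 and 2. At 8 and 9 dpf the medians of the 25 genes were -0.15 and -0.11. The 72 tested genes of the synapse and neuron list that were not members showed the same order at 10 dpf, with replicate 2 above in 70 and a median of 0.69.

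**Figure D4:**
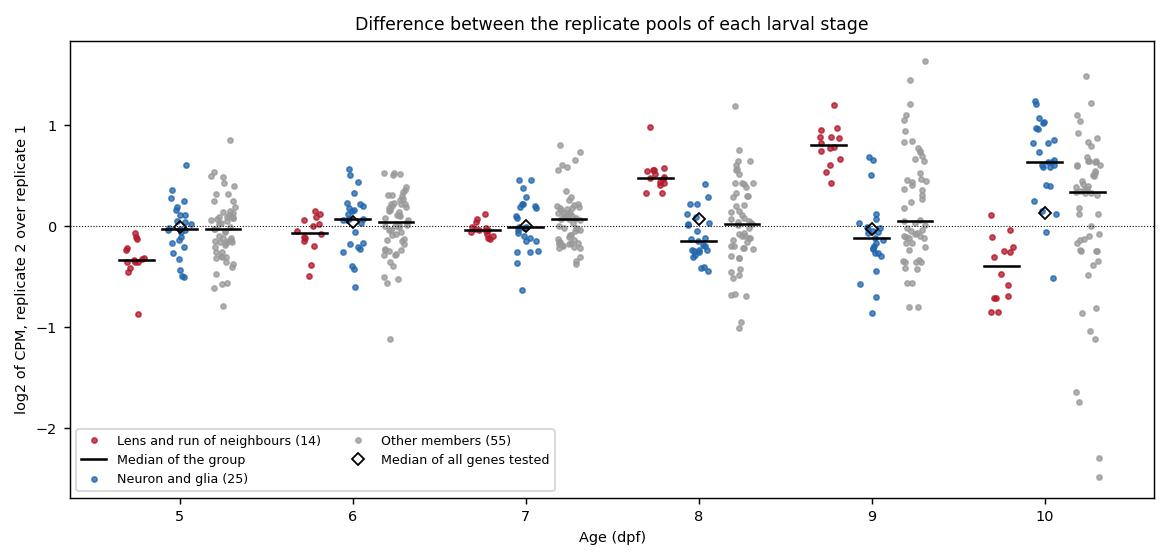
The log2 ratio of CPM in replicate 2 over replicate 1 at each larval stage, with a point per member, a black line for the median of a group and a diamond for the median of all genes tested. The lens genes and genes of the run lie above 0 at 8 and 9 dpf, with medians of 0.48 and 0.80, and mostly below it at 10 dpf, where the neuronal and glial genes have a median of 0.64.

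Several other members had their widest gap at 10 dpf. gh1 was 5.58-fold, si:dkey-1k23.3 4.90-fold, zgc:163073 3.34-fold and psmb9a 3.12-fold higher in replicate 1 than in replicate 2, and each of these was higher in replicate 2 at 9 dpf. Of the 39 tested genes of the leukocyte list that were not members, 30 were likewise lower in replicate 2 at 10 dpf, with a median log2 ratio of -0.68. In all, 15 of the 94 members were at least 2-fold apart between the replicates of 10 dpf, close to the 16.5% of all genes, and 6 were at 9 dpf, against 7.51% of all genes.

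The stage means of the members rested on these replicates to different degrees. Without replicate 1 of 10 dpf, 52 of the 94 still met the rule, and 17 of the 25 neuronal and glial genes did not. Without replicate 2 of 9 dpf, 66 did, and all 7 genes of the run did not. Without replicate 2 of 2 dpf, 75 did, and with any other library left out, 80 to 92. With every limit applied to single libraries in place of means, 8 genes passed, among them ndufa4b, a gene of the respiratory chain, slc6a2, mlc1, crabp1a and gls2a, a glutaminase gene.

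At 2 dpf, the few reads of the members were more numerous in 1 of the 2 pools. Of the 94 members, 12 had 3 counts or fewer in both libraries, and 23 were above 1 CPM in 1 of them. Replicate 1 had more counts than replicate 2 for 65 members and fewer for 19, and 10 were equal, with 671 and 452 counts in all. Among the 2766 genes under 1 CPM at 2 dpf with at least 5 counts, replicate 1 was higher for 52.7% and replicate 2 for 37.5%, with 17010 and 14920 counts. The members were held to no such minimum of counts, and those that reach it are among the 2766, so the 2 sets are not fully alike. For the 7 lens genes the counts were 57 and 20, with replicate 1 higher for 6 and equal for 1, and for the 7 genes of the run they were 21 and 12, again with 6 higher and 1 equal. The 25 neuronal and glial genes had 195 and 133 counts, with 18 higher in replicate 1 and 4 in replicate 2. Totals of the 2 libraries were 10708575 and 10906305 counts.

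**Figure D5:**
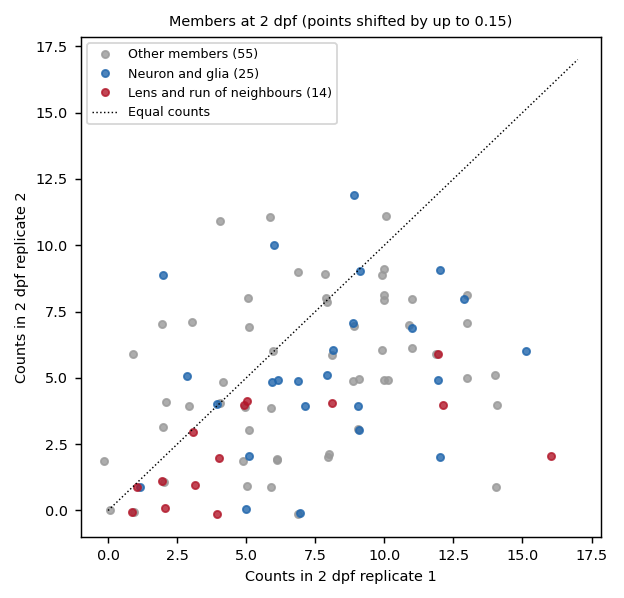
Counts of each member in replicate 2 against replicate 1 at 2 dpf, with points shifted by up to 0.15 so that equal values can be seen, and the line of equal counts. More points lie under the line than above it, 65 against 19, and the lens genes and genes of the run lie on or under it.

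Among larval stages, 5 dpf was the highest for 11 of the 94 members, 6 dpf for 1, 7 dpf for 10, 8 dpf for 24, 9 dpf for 5 and 10 dpf for 43. The rule had used these stage means, and the share over all genes was not counted, so the peaks are a description only. The stage means of 6, 8 and 10 dpf all lay above those of 5, 7 and 9 dpf in 11 members, beside 8.84% of all genes tested, and all below in 2, cryba1a and crybb1l3, beside 7.98%. Among the 11 were cryba4, crygn2, LOC108259744, LOC108259752, rlbp1a and 3 genes of the run. By single libraries, without overlap, this held for 2 members, LOC108280851 and LOC108260821, beside 1.42% of all genes, and the reverse for 0, beside 2.14%. All libraries of 5, 7 and 9 dpf, and of the others only replicate 1 of 8 dpf, departed from the FPKM table, so the day and this mismatch cannot be told apart in the alternation.

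Close to the limits, gpr85 and sppl2, a gene of the signal peptide peptidase family, were the members with the highest means at 2 dpf, 0.975 and 0.974 CPM, and LOC108274494, just outside, had 1.02 CPM. LOC108273706 and zgc:171482 were the members with the lowest larval means, 5.02 and 5.11 CPM, and LOC108279597 and klhl38a stayed outside with 4.99 and 4.95 CPM. LOC108260821 and dlg4b were inside at larval ratios of 2.00, and arhgef9a and LOC108276674 outside at 2.02 and 2.02. pafah1b2 and zgc:163073 were inside at sizes of 0.49 and 0.47 for the log2 ratio of 9 to 5 dpf, and LOC108276594 and stra6, the receptor gene for retinol uptake, outside at 0.50 and 0.53. The limit at 2 dpf alone kept out 6845 genes, that on the larval level 316, that on the larval ratio 78 and that on 9 against 5 dpf 18.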

How the data were processed

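Ribosome-depleted RNA of 14 pools was sequenced. Per the labels, the processing named CASAVA 1.9.1, FastQC, Trimmomatic 0.36, STAR 2.7.0 and HTSeq. The authors deposited a table of raw read counts, one column per library, not normalized. In 7 of its 14 columns (5, 7 and 9 dpf and replicate 1 of 8 dpf) the counts do not correspond to the FPKM table of the study, and every larval level rests in part on these columns, used as deposited. A published channel catfish genome is cited for the mapping, and the name of the build, the annotation and the strand setting are not given in the sources used here, so overlapping and antisense genes and near copies are uncertain. Lines sharing an identifier (7 lines of 3 identifiers) were summed. CPM is the count over the column total. Symbols and gene order came from RefSeq, Coco_2.0, in which 90 members had a symbol. No sequence was used.

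All libraries were fitted with edgeR 4.0.16 in R 4.3.3 (TMM, filterByExpr, quasi-likelihood test, Benjamini-Hochberg adjustment over 20329 genes). Standard errors are approximate, the fold change over the root of F. Alternatives were RLE, no filter, DESeq2 1.42.0, glmTreat, replicate blocks, single libraries left out, TMM-scaled CPM and other limits of the rule. Counting floors cover counting error only.

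The members and all lists were chosen with earlier results of these data known. Genes named are the 10 members with the highest lowest larval mean, up to 4 per list, the 5 smallest and 5 largest larval ratios, those without a count at 2 dpf, neighbours and genes at the limits. Other genes were named for their role or to complete a count after their values were seen. No ranking was needed, as fewer genes passed than the rule allowed for.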

Additional observations from a re-analysis of the deposited data

How the results depend on the processing

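The number of members called higher at 5 than at 2 dpf was 94 with RLE normalization, no filter, DESeq2, the replicate block and glmTreat. The rule had fixed this rise, here and in the refits that follow. In either direction, these settings called 6760 of 20329, 6850 of 23036, 6730 of 23231, 6708 of 20329 and 3858 of 20329 genes. Of 192 refits of the log2 fold change of 32 named genes, 191 stayed past the threshold, and gh1 missed it without replicate 2 of 2 dpf (log2 fold change 3.41). The rule was met by 96 genes with TMM-scaled CPM, of which 81 were members, by 39 with a limit of 0.5 CPM at 2 dpf, by 28 with a larval ratio of at most 1.5 and by 8 with limits on single libraries. With a library left out, 52 to 92 members were kept. Between 7 and 6 dpf, RLE normalization, no filter and DESeq2 each called 1 member, meox2a, in place of 0. Over all genes they called 516 of 20329, 524 of 23036 and 648 of 23231. Between 9 and 8 dpf no filter and DESeq2 each called 1, LOC108260821, beside 148 of 23036 and 207 of 23231 genes. Fits with a library left out rest on a lone library at a stage, so members called in them are not counted here. The genes named below from such fits were picked because they passed the threshold there. Their values do not describe the members as a set. Without replicate 1 of 10 dpf, log2 fold changes from 9 to 10 dpf included -2.45 for si:dkey-1k23.3, -1.82 for gh1 and -1.67 for psmb9a. They also included -1.35 for prf1.5, -1.18 for LOC108270103, -1.08 for crybb1l3, 1.18 for gpr19 and 1.27 for atcayb. With all libraries, those of the members lay between -0.78 and 0.89 in this step. Without replicate 2 of 9 dpf, log2 fold changes from 8 to 9 dpf included -1.50 for LOC108260821 and -1.44 for LOC108260579. Scaling by TMM left the direction of each replicate difference of the lens genes with the run and of the neuronal genes, with medians of 0.41, 0.86 and -0.54 and of -0.22, -0.05 and 0.49 at 8, 9 and 10 dpf. The pools share a replicate number only. Across genes, the log2 difference between replicates 2 and 1 at a stage was correlated with the same difference at the next stage. These correlations of differences were -0.0020 to 0.028 in the steps up to 8 dpf and -0.27 and -0.58 in the last 2 steps. The replicate block called 0 members in each larval step, beside 1912, 421, 369, 107 and 179 of 20329 genes. A crossed replicate block called 1 between 9 and 8 dpf and 0 between 10 and 9 dpf, beside 186 and 270 genes. It was chosen after seeing the data, like the TMM scaling above. The cause of these changes was not tested. Members with 1 or 2 counts at 2 dpf have fold changes that depth limits.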
